A study of Mus musculus with 15 samples.

Results

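The genes described here, 10 of the 45777 features in each gene table, mark the earlier stages of the oligodendrocyte lineage. They are Pdgfra, Cspg4, Olig1, Olig2, Tnr and C1ql1, read here as genes of the precursor cell, and Gpr17, Neu4, Enpp6 and Bcas1, read as genes of the committed, premyelinating cell. The grouping is loose for Olig1 and Olig2. Olig1, and less closely Olig2, varied with markers of mature oligodendrocytes from library to library. Rows were taken by gene symbol, and all 10 passed the filter on low counts among 18499 genes tested in F1 and 18093 in F2. Bcas1 was picked because it was higher in F1 METH mice. Its F1 values are therefore a description without a test.

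Oligodendrocyte precursor cells are glia that keep dividing in the adult brain and are recognised by the receptor PDGFRα and the proteoglycan NG2. Some leave the cycle and pass through a short premyelinating stage, in which GPR17, BCAS1 and ENPP6 appear, before they make myelin. Bundles of myelinated axons cross the striatum, so striatal RNA includes that of myelinating cells beside that of precursors.

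The mice were wild type, outbred ICR males, and their striatum was collected at 7 weeks of age. The F1 METH lineage had 3 libraries, from sons of founder males given methamphetamine (METH) at 5 mg/kg subcutaneously for 21 days, and the F1 saline lineage had 4, from sons of founders given saline at 10 mL/kg. The F2 METH lineage and the F2 saline lineage had 4 libraries each, from sons of F1 males and untreated females. Founders were 6 weeks old when dosing began and were mated with untreated females. None of the animals sequenced was itself dosed. The labels tie no animal to a founder or litter, so p-values measure the spread between these animals only.

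The labels call the cell type neuronal, but the RNA came from whole tissue. Summed over 25 markers of mature oligodendrocytes (Mbp and others), the level in a library was 7511 to 14987 TPM (a share of all transcripts, corrected for gene length), and summed over 8 general neuron markers it was 2993 to 4167 TPM. Library totals ran from 31563806 to 50573906 counts. Each of the 10 genes had at least 181 reads in every library. Slc17a7, a glutamate transporter gene of cortical excitatory neurons, was above 100 CPM (reads scaled to library size, not to gene length) in F1 METH replicate 3, F1 saline replicates 1 and 3, F2 METH replicate 2 and F2 saline replicate 4. In bulk tissue, fewer cells of a type and less RNA per cell cannot be told apart.

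Over the 15 libraries, with the mean of each group subtracted, Enpp6 varied together with the mature oligodendrocyte markers and Pdgfra hardly did. The stretches just before their starts are shown for that reason. Enpp6 encodes a choline-specific glycerophosphodiesterase. Its window is chr8:46986637-46986886 on the plus strand, and that of Pdgfra is chr5:75152001-75152250 on the plus strand. Both are 250 bases of RefSeq's GRCm38.p6 and both lie inside the span that RefSeq gives the whole gene, before the start that RefSeq's promoter table uses. Capitals mark ACAATG, the only match in these windows to the motifs searched.
Enpp6: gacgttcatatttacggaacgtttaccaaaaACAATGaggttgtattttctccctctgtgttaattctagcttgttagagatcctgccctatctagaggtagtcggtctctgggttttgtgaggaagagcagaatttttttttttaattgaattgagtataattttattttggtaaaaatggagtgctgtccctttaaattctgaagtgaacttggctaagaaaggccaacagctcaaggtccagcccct
Pdgfra: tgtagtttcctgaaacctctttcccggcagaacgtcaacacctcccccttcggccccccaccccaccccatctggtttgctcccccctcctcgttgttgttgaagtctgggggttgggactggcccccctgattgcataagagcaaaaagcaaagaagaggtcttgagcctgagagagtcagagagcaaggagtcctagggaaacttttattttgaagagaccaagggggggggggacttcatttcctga

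The motifs searched, on both strands, were ACAAAG and ACAATG (core sequences bound by SOX proteins), CAGCTG (an E-box of the kind bound by OLIG proteins) and TATAAA. The Enpp6 window held 1 ACAATG, present in 10.7% of 32851 RefSeq windows of the same length. The Pdgfra window held none of them, where ACAAAG was in 16.5% of windows, CAGCTG in 13.0% and TATAAA in 12.4%. The Enpp6 window was 38.4% G and C and the Pdgfra window 54.4%, against a median of 52.4% over all windows. A match is a description of letters and shows no binding. Of the 10 genes, 6 had a window in the RefSeq table. Among the windows not printed, that of Olig2 held 1 ACAATG and 1 TATAAA, and that of Tnr held 1 ACAAAG. Those of Neu4 and Cspg4 held no match.

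The 10 genes differed widely in level. On the TPM scale, over the 15 libraries, Bcas1 was highest at 211 ± 37.7 (SD, n = 15) and Olig1, a basic helix-loop-helix transcription factor gene, was next at 135 ± 19.9. Gpr17, a G protein-coupled receptor gene, averaged 50.0 ± 10.9 TPM. These 3 kept their order in 15 of 15 libraries, as did Gpr17 above Tnr.

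The middle and the bottom of the order were closer. Tnr, encoding the matrix protein tenascin-R, averaged 35.5 ± 6.54 TPM and was above Olig2 in 12 of 15 libraries. Olig2, encoding the partner factor of OLIG1, averaged 32.6 ± 7.80 TPM and was above Pdgfra in 13 of 15. Pdgfra averaged 25.2 ± 4.10 TPM and was above C1ql1 in 15 of 15 libraries.

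The 4 lowest genes overlapped. C1ql1, a secreted C1q-like protein gene, averaged 11.6 ± 2.05 TPM and Enpp6 9.88 ± 2.22 TPM. Cspg4, which encodes NG2, averaged 9.11 ± 1.39 TPM and the sialidase gene Neu4 8.87 ± 1.46 TPM. Cspg4 was above Neu4 in 8 of 15 libraries, so the order of that pair did not hold beyond their spread. Levels of F1 and F2 come from separate deposited tables and are not compared between generations.

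Among the precursor genes, Pdgfra, the gene of the receptor for platelet-derived growth factor A (chromosome 5, 75151322 to 75198206, GRCm38.p6 as for all positions here), had 56.8, 56.9 and 71.1 CPM in F1 METH libraries, against 63.7, 63.4, 61.6 and 50.3 CPM in F1 saline libraries. Of the METH libraries, 1 was above the saline libraries, and 1 saline library was below all others. In F2 it had 66.7, 67.8, 58.0 and 75.4 CPM in METH libraries, against 77.0, 57.4, 74.0 and 73.0 CPM in saline libraries, and the groups overlapped. Its log2 fold change, METH over saline, was 0.04 (SE 0.12) in F1 and -0.07 (SE 0.10) in F2.

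Cspg4 (chromosome 9, 56865104 to 56899870) had 25.7, 24.9 and 34.5 CPM in F1 METH libraries, against 25.5, 25.03, 28.2 and 25.5 CPM in F1 saline libraries. F1 METH replicate 3 stood above the saline range, and replicate 2 just below it. In F2 it had 31.5, 30.2, 29.8 and 30.6 CPM in METH libraries, a narrow range inside the 25.6 to 36.03 CPM of the saline libraries. Its log2 fold changes were 0.12 (SE 0.12) in F1 and 0.03 (SE 0.10) in F2.

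Pdgfra and Cspg4 are also made by fibroblasts and pericytes, whose markers were mostly higher in F1 METH mice, none of them called. Of 13 fibroblast markers, 12 were higher in F1 METH mice, with a median log2 fold change of 0.35, and their summed level was 75.8 to 87.8 TPM in METH libraries and 52.9 to 82.9 TPM in saline libraries. Pericyte and smooth muscle markers gave 13 of 13 higher, a median of 0.27 and sums of 213 to 230 TPM in METH libraries and 178 to 199 TPM in saline libraries. None of either list was at 0 in every library. In F2 the medians were -0.16 for fibroblast and 0.11 for pericyte markers. Their part in the Pdgfra and Cspg4 values was not tested.

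Olig1 (chromosome 16, 91269769 to 91271939) had 98.5, 124 and 126 CPM in F1 METH libraries, against 99.99, 116, 119 and 117 CPM in F1 saline libraries. In F2 it had 116, 114, 98.7 and 102 CPM in METH libraries, against 161, 101, 127 and 105 CPM in saline libraries, with F2 saline replicate 1 well above the rest. Olig2 (chromosome 16, 91225550 to 91228677), which with Olig1 sets oligodendrocyte identity, had 27.1, 29.1 and 30.3 CPM in F1 METH libraries, all within the 21.8 to 36.2 CPM of F1 saline libraries. In F2, Olig2 had 35.5, 33.9, 30.3 and 25.3 CPM in METH libraries, against 51.0, 33.9, 30.4 and 28.2 CPM in saline libraries, again with saline replicate 1 highest.

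The log2 fold changes of Olig1 and Olig2 were both 0.04 in F1 (SE 0.11 and 0.16) and both -0.20 in F2 (SE 0.13 and 0.18). Without F2 saline replicate 1, the F2 values were -0.04 for Olig1 and 0.02 for Olig2.

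Tnr (chromosome 1, 159523729 to 159931729) was lower on average in METH mice of both generations, at 155 ± 17.2 CPM in F1 METH and 174 ± 24.2 CPM in F1 saline libraries (SD, n = 3 and 4), and at 193 ± 7.05 CPM in F2 METH and 207 ± 9.28 CPM in F2 saline libraries (n = 4 each). Its groups overlapped in both generations, and its log2 fold changes were -0.17 (SE 0.13) in F1 and -0.10 (SE 0.056) in F2. C1ql1 (chromosome 11, 102939264 to 102946716), which had the fewest reads, averaged 6.17 ± 0.8288 CPM in F1 METH and 7.42 ± 1.75 CPM in F1 saline libraries, and 6.39 ± 0.653 CPM in F2 METH and 7.36 ± 1.02 CPM in F2 saline libraries. Its groups overlapped as well, with log2 fold changes of -0.27 (SE 0.20) in F1 and -0.20 (SE 0.13) in F2. Single libraries moved these values: C1ql1 was at -0.099 in F1 without F1 saline replicate 2 and at -0.11 in F2 without F2 saline replicate 1. Tnr in F1 was at -0.095 without F1 METH replicate 2 and at -0.26 without F1 saline replicate 4.

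**Figure D1:**
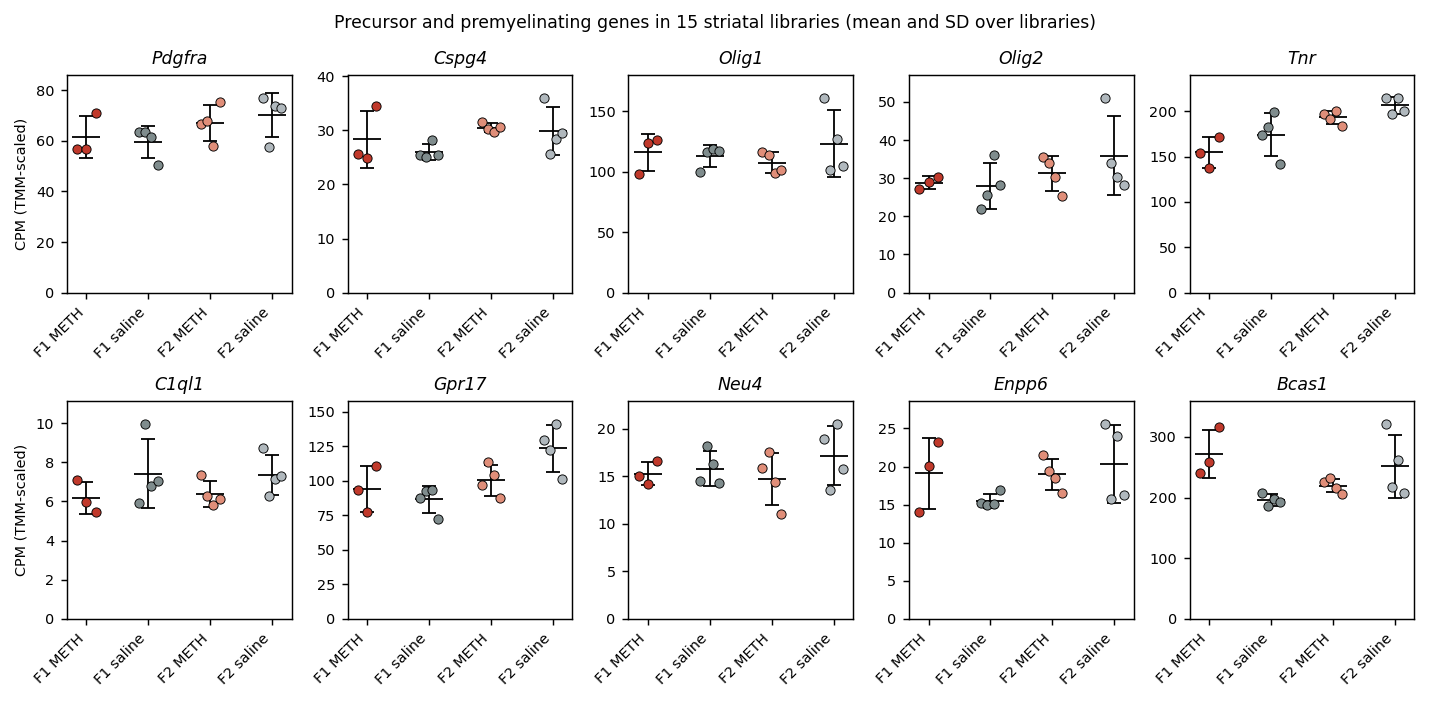
TMM-scaled CPM of the 10 genes in each of the 15 libraries (points), with the mean and SD of each group (bars), by generation and lineage. All 3 F1 METH libraries of Bcas1 (241 to 317 CPM) lie above the F1 saline libraries (185 to 208 CPM), and the groups overlap for the other 9 genes in both generations.

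Among the premyelinating genes, Bcas1, whose protein appears as precursors begin to myelinate, had 241, 258 and 317 CPM in F1 METH libraries, against 208, 185, 198 and 192 CPM in F1 saline libraries. The groups did not overlap, which follows from how the gene was picked. Of all genes tested in F1, 3.08% were higher without overlap and 2.42% lower. The log2 fold change was 0.47 (SE 0.10), 1.39-fold, and 0.35 without F1 METH replicate 3, its highest library.

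In F2, which had no part in choosing it, Bcas1 had 225, 231, 216 and 206 CPM in METH libraries, against 321, 217, 262 and 208 CPM in saline libraries. The groups overlapped, as they did for all but 1.34% of genes (METH higher) and 1.2% (METH lower) in F2. The METH libraries sat together near the lower saline libraries, while saline replicates 1 and 3 were higher. The log2 fold change was -0.20 (SE 0.12, 95% interval -0.46 to 0.07), with an adjusted p of 0.960 in edgeR's quasi-likelihood test, and its direction was opposite to that in F1. Without F2 saline replicate 1 it was -0.06.

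Gpr17, a receptor whose activity holds committed precursors back from maturing, had 93.3, 77.4 and 111 CPM in F1 METH libraries, against 87.6, 92.7, 93.6 and 72.1 CPM in F1 saline libraries. In F2 it had 96.6, 114, 104 and 87.2 CPM in METH libraries, against 130, 123, 141 and 101 CPM in saline libraries. Of the F2 METH libraries, 2 lay below all of the saline libraries and none above. The log2 fold change was 0.12 (SE 0.13) in F1 and -0.30 (SE 0.11, 95% interval -0.54 to -0.06) in F2.

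In F2, Gpr17 alone among these genes had an unadjusted p under 0.05, and it did not pass over all genes (adjusted p = 0.960, edgeR's quasi-likelihood test). Without F2 saline replicate 3 or F2 METH replicate 4 its unadjusted p was no longer under 0.05, with log2 fold changes of -0.23 and -0.24. Without the F2 libraries with Slc17a7 above 100 CPM its log2 fold change was -0.45, with an adjusted p of 0.524 in the same test. Gpr17, on the minus strand of chromosome 18 (31942999 to 31949890), lies inside the span of Lims2 on the plus strand. Lims2 averaged 12.4 ± 0.783 CPM in F2 METH and 14.2 ± 2.64 CPM in F2 saline libraries, and whether the counting used strand is not given in the sources used here. Its part in the Gpr17 value was not tested. Bcas1, on the minus strand of chromosome 2 (170343973 to 170427911), overlaps Bcas1os2, which averaged under 0.5 CPM in each group.

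Enpp6 (chromosome 8, 46939197 to 47096762) had 14.1, 20.05 and 23.2 CPM in F1 METH libraries, against 15.3, 14.9, 15.1 and 16.9 CPM in F1 saline libraries. Of the METH libraries, 2 were above the saline libraries and 1 was below them all. In F2 it had 21.5, 19.4, 18.5 and 16.5 CPM in METH libraries, against 25.6, 15.8, 23.9 and 16.2 CPM in saline libraries, with full overlap. The log2 fold changes were 0.30 (SE 0.16) in F1 and -0.10 (SE 0.16) in F2. Leaving out 1 library moved the F1 value to between 0.13, without F1 METH replicate 3, and 0.48, without F1 METH replicate 1. The F2 value moved to between -0.21, without F2 saline replicate 2, and 0.02, without F2 saline replicate 1.

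Neu4 (chromosome 1, 94020493 to 94028334) had 15.01, 14.2 and 16.6 CPM in F1 METH libraries, against 14.5, 18.2, 16.3 and 14.2 CPM in F1 saline libraries. In F2 it had 15.9, 17.6, 14.5 and 11.02 CPM in METH libraries, against 18.9, 13.6, 20.5 and 15.8 CPM in saline libraries. The groups overlapped in both generations, and the log2 fold changes were -0.05 (SE 0.12) in F1 and -0.22 (SE 0.16) in F2. The F2 value was -0.11 without F2 METH replicate 4 and -0.32 without F2 saline replicate 2.

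**Figure D2:**
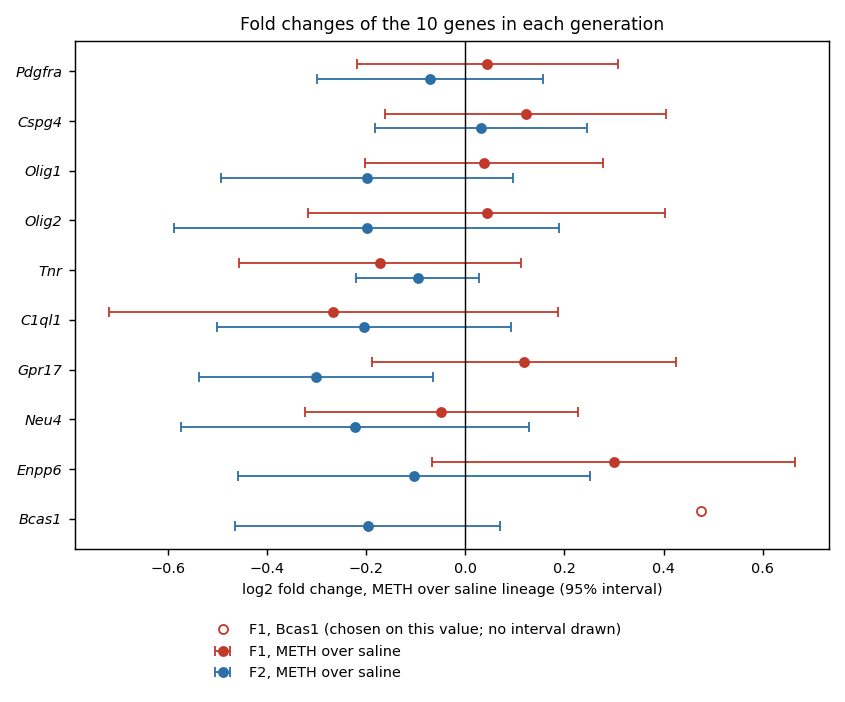
Log2 fold change (METH over saline lineage) of the 10 genes in F1 (red) and F2 (blue), with 95% intervals from edgeR. The interval of Gpr17 in F2 (-0.54 to -0.06) does not reach 0, and Bcas1 in F1 (0.47, open circle) is drawn without an interval because it was chosen on that value.

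edgeR's quasi-likelihood test with Benjamini-Hochberg adjustment called 0 of the 10 genes in F1 and 0 in F2, where it called 0 of all 18499 and 0 of all 18093 genes (0% in both). DESeq2 called 1 of the 10 in F1 (0.0595% of all genes) and 0 in F2 (0.0387%). The 1 in F1 was Bcas1, which was chosen on that contrast, so its call is no evidence. limma-voom called 0 of the 10 in F1 (0.0162% of all genes) and 0 in F2 (0.00553%). At an unadjusted p under 0.05, 0 of the 9 genes other than Bcas1 passed in F1, against 4.18% of all genes, and 1 of 10 in F2, against 4.77%. The smallest adjusted p of the other 9 genes was 0.994 in F1, and that of the 10 in F2 was 0.960.

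In F1, 7 of the 10 genes were higher and 3 lower in METH mice, Bcas1 among the higher, with a median log2 fold change of 0.04. Over all genes tested, 49.1% were higher and 50.9% lower, with a median of -0.0035. The split was 5 and 5 on the TPM scale, where the median of all genes was -0.05, and 3 higher and 7 lower without F1 METH replicate 3. No direction for the 10 genes together therefore held in F1.

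In F2, 1 of the 10 was higher and 9 lower in METH mice, with a median log2 fold change of -0.20. Over all genes tested, 49.5% were higher and 50.5% lower, with a median of -0.0020. Without F2 saline replicate 1 the median was -0.05, with 7 of 10 lower. The 4 premyelinating genes had medians of 0.21 in F1, a value that includes Bcas1, and -0.21 in F2. Bcas1 was chosen for its F1 values, and Enpp6, Gpr17 and Neu4 had 0.30, 0.12 and -0.05 in F1. The 6 precursor genes had medians of 0.04 in F1 and -0.15 in F2. These include Olig1 and Olig2, which also varied with the mature oligodendrocyte markers (r = 0.93 and 0.72), so the medians are not of precursor cells alone.

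Markers of other cell types also differed on average between the lineages, none of them called. Of 10 astrocyte markers, 7 were higher in F1 METH mice (median log2 fold change 0.17) and 10 were lower in F2 (median -0.18), with sums of 1853 to 2197 TPM in F2 METH and 2040 to 2449 TPM in F2 saline libraries. Their F1 sums were 1695, 1687 and 2390 TPM in METH libraries and 1616 to 1775 TPM in saline libraries, so only METH replicate 3 exceeded the saline range. Of 12 microglia markers, 11 were higher in F1 (median 0.17) and 12 lower in F2 (median -0.24), with sums of 482 to 564 TPM in F2 METH and 498 to 703 TPM in F2 saline libraries. Their F1 sums were 464, 544 and 689 TPM in METH libraries and 473 to 591 TPM in saline libraries, again with only METH replicate 3 above the saline range.

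Endothelial markers differed in direction between the generations. Of 9, 8 were higher in F1 METH mice (median 0.19), 5 at an unadjusted p under 0.05, with sums of 380 to 432 TPM in F1 METH and 327 to 373 TPM in F1 saline libraries. In F2, 6 of the 9 were lower (median -0.12), 1 of them at an unadjusted p under 0.05. Sums were 261 to 291 TPM in F2 METH and 304 to 341 TPM in F2 saline libraries. On the TPM scale the summed levels did not overlap in either generation. On the CPM scale they overlapped in F2, at 276 to 312 CPM in METH and 309 to 353 CPM in saline libraries. Of 10 markers of spiny projection neurons, the main neurons of the striatum, 9 were higher in METH mice in F1 (median 0.14) and 9 in F2 (median 0.06), with overlapping sums in both.

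Of 8 general neuron markers, 6 were lower in F1 METH mice (median -0.17) and 3 in F2 (median 0.02). Of 8 cortical excitatory neuron markers, 8 were lower in F1 METH mice (median -0.56). Slc17a7 itself had 31.0, 24.03 and 396 CPM in F1 METH libraries, against 322, 98.0, 526 and 9.47 CPM in F1 saline libraries. The F1 libraries of both lineages thus differed widely in cortical signal. With the cortical marker mean as a covariate, the median log2 fold change of the 10 genes was 0.07 in F1 and -0.16 in F2. With it, F1 values were 0.16 (SE 0.089) for Gpr17, 0.08 (SE 0.078) for Pdgfra and -0.12 (SE 0.078) for Tnr. Without the libraries with Slc17a7 above 100 CPM, the medians were 0.0041 in F1 and -0.25 in F2. The part of the cell types above in the values of the 10 genes was not tested beyond this.

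The difference between generations was tested in a single model over the 15 libraries, which were treated as unrelated animals. For the 9 genes other than Bcas1, edgeR's quasi-likelihood test called 0, against 0.00518% of 19308 genes (1 gene). DESeq2 also called 0 of them (0.0363% of all genes), as did limma-voom (0% of all genes). The difference was above 0 for 2 of the 10 genes, Tnr and C1ql1, and below 0 for 8, against 49.9% and 50.1% of all genes. The 8 include Bcas1, whose direction here follows in part from its choice on F1 values. Among the 9 genes other than Bcas1, 1 had an unadjusted p under 0.05, Gpr17, against 4.88% of all genes. Its METH effect in F2 minus that in F1 was -0.43 (SE 0.18, adjusted p = 0.976 in edgeR's quasi-likelihood test). Bcas1, given without a test, had a difference of -0.68 (SE 0.17), and Enpp6 one of -0.41 (SE 0.25).

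Mature oligodendrocyte markers, genes of the myelin sheath and its upkeep, also differed in direction between the generations. In F1, 25 of 25 were higher in METH mice, with a median log2 fold change of 0.25, 7 at an unadjusted p under 0.05 and none called. On the TPM scale 24 of 25 were higher, and without F1 METH replicate 2 the median was 0.16, with 22 of 25 higher. Mobp, encoding a basic protein of central myelin, averaged 1657 ± 244 CPM in F1 METH and 1226 ± 227 CPM in F1 saline libraries. Mbp, encoding myelin basic protein, averaged 4262 ± 856 CPM in F1 METH and 3378 ± 197 CPM in F1 saline libraries. The summed level of the 25 was 7511, 10642 and 11149 TPM in F1 METH libraries and 7553 to 8535 TPM in F1 saline libraries, so F1 METH replicate 1 lay below the saline range.

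In F2, 23 of 25 mature markers were lower in METH mice, with a median log2 fold change of -0.13 and none at an unadjusted p under 0.05. Summed levels were 9032 to 11720 TPM in F2 METH libraries and 8445 to 14987 TPM in F2 saline libraries, with saline replicate 1 highest. Without that library 19 of the 25 were higher and the median was 0.05. With the mean level of these markers as a covariate, the log2 fold change of Bcas1 was 0.41 in F1 and -0.11 in F2, and that of Gpr17 in F2 was -0.26. The part of the mature markers in the values of the 10 genes was not tested beyond this.

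The 10 genes differed in how they followed the mature markers from library to library. After the mean of each of the 4 groups was subtracted, the correlation with the mean log2 CPM of the 25 markers was r = 0.93 (rho = 0.87, n = 15) for Olig1, r = 0.87 (rho = 0.88) for Enpp6 and r = 0.80 (rho = 0.61) for Bcas1. Both measures come from the same libraries and share their depth and dissection. Without the pair of libraries farthest from the median, F2 saline replicates 1 and 4, these were 0.89, 0.86 and 0.51.

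For Bcas1, r was 0.31 over the 7 F1 libraries and 0.98 over the 8 F2 libraries. F1 saline replicate 1, for example, had the lowest mature marker mean of the 4 F1 saline libraries and the highest Bcas1. Olig1 had 0.94 in F1 and 0.93 in F2, and Enpp6 0.82 in F1 and 0.90 in F2. Over all 15 libraries, r was lower for the other genes, at 0.72 for Olig2, 0.49 for Cspg4, 0.48 for Neu4, 0.27 for Gpr17, 0.27 for C1ql1, 0.16 for Pdgfra and 0.08 for Tnr.

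For several of these the pooled value hides a split between generations. Tnr had r = -0.25 over the F1 libraries and 0.76 over the F2 libraries, Gpr17 -0.28 in F1 and 0.63 in F2, and C1ql1 -0.13 in F1 and 0.67 in F2. Pdgfra had -0.03 in F1 and 0.26 in F2. Without F2 saline replicates 1 and 4, the pooled r was 0.10 for Pdgfra, 0.08 for C1ql1, -0.03 for Gpr17 and -0.06 for Tnr, so the order of the lowest genes did not hold.

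**Figure D3:**
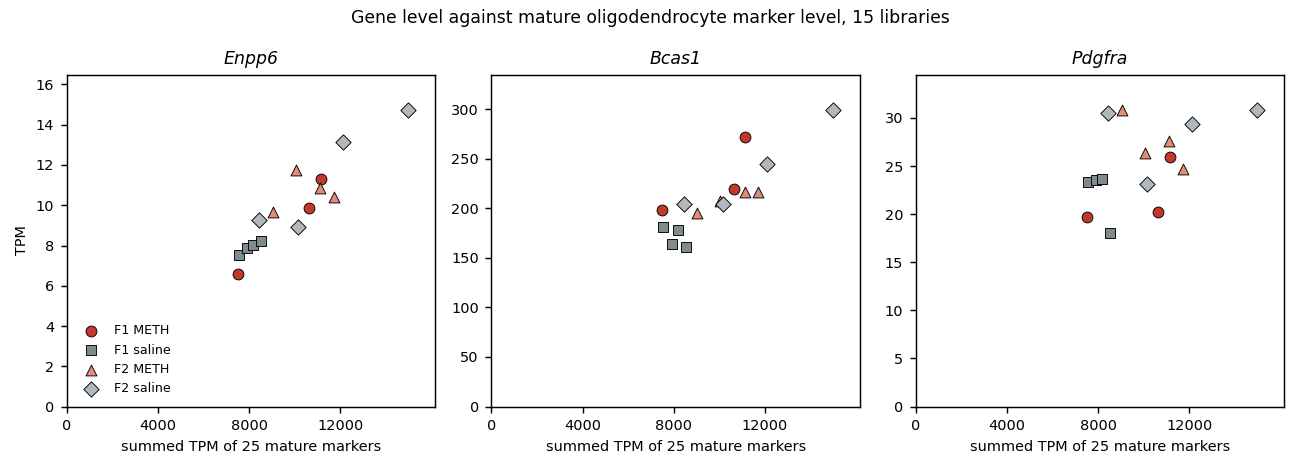
TPM of Enpp6, Bcas1 and Pdgfra against the summed TPM of 25 mature oligodendrocyte markers, 1 point for each of the 15 libraries, marked by generation and lineage. Group means are not subtracted here, so the offset between the tables of F1 and F2 is part of what is seen. Enpp6 follows the markers more closely than Pdgfra does, and F2 saline replicate 1 (14987 TPM) lies at the far right.

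Among themselves, Bcas1, Enpp6 and Olig1 varied together, with r = 0.86 for Bcas1 and Enpp6, 0.87 for Enpp6 and Olig1 and 0.81 for Bcas1 and Olig1 (n = 15, group means subtracted). Cspg4 had r = 0.77 with Bcas1 and 0.66 with both Pdgfra and Olig1. Gpr17 had 0.79 with Tnr and 0.68 with Neu4. Olig1 and Olig2, neighbours on chromosome 16, had r = 0.74, while Pdgfra and Olig2 had 0.01. C1ql1, with the fewest reads, had no pooled correlation above 0.46, but over the F2 libraries alone it had 0.89 with Cspg4, 0.85 with Olig1 and 0.70 with Bcas1, and over the F1 libraries -0.68 with Bcas1. Gpr17 and Pdgfra had 0.89 in F1 and -0.16 in F2, so pairs also differed between generations.

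**Figure D4:**
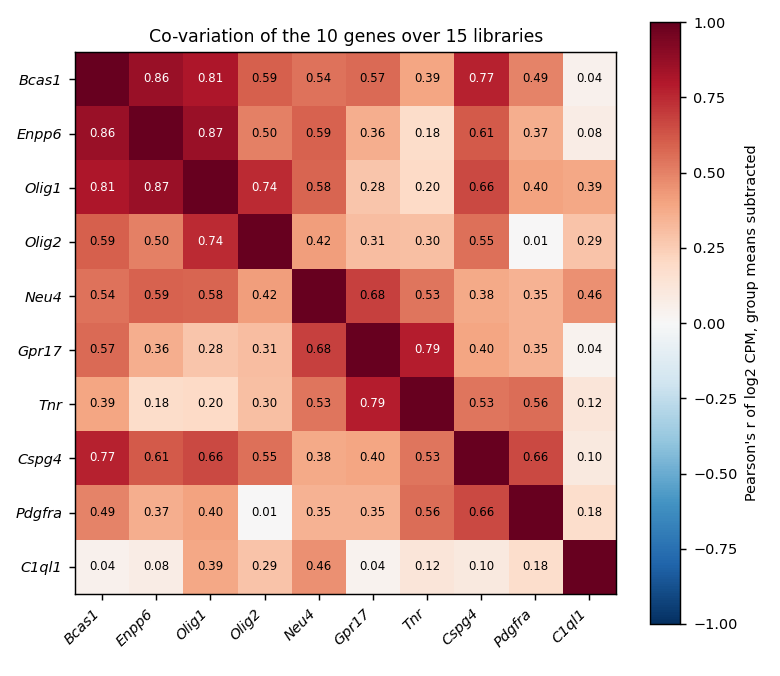
Pearson's r between each pair of the 10 genes over 15 libraries, from log2 CPM with the 4 group means subtracted (colour scale from -1 to 1). Bcas1, Enpp6 and Olig1 form the darkest block (0.81 to 0.87), Gpr17 and Tnr reach 0.79, and C1ql1, pooled over both generations, is pale throughout.

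Among 9837 genes with a mean of at least 10 CPM, the 5 whose pattern was most like Bcas1 by the same measure were Phactr4 (r = 0.93), Jam3 (0.92), S100b (0.91), Plekhb1 (0.91) and March8 (0.90). In F1 their log2 fold changes were 0.38, 0.13, 0.19, 0.19 and 0.07, and in F2 -0.33, 0.01, -0.18, -0.14 and -0.10, in that order. Of the 10 genes themselves, Enpp6 would have ranked 16, Olig1 55 and Cspg4 98.

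Other genes of the precursor stage were measured as a list of 24. In F1, 11 were higher and 13 lower in METH mice, with a median log2 fold change of -0.01, and none was called. Zfp488, an oligodendrocyte lineage transcription factor gene, averaged 7.96 ± 0.705 CPM in F1 METH and 6.25 ± 0.629 CPM in F1 saline libraries, the only one at an unadjusted p under 0.05. In F2, Zfp488 went the other way, with a log2 fold change of -0.23 (SE 0.14).

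In F2, 6 of the 24 were higher and 18 lower, with a median of -0.06 and none called. An unadjusted p under 0.05 was reached by 3. Matn4, a matrilin gene, averaged 13.7 ± 1.41 CPM in F2 METH and 17.4 ± 2.096 CPM in F2 saline libraries (log2 fold change -0.34, SE 0.11). Tmem100, a small membrane protein gene, averaged 8.09 ± 0.689 CPM in F2 METH and 10.3 ± 1.02 CPM in F2 saline libraries. Ptprz1, a receptor phosphatase gene shared with astrocytes, averaged 244 ± 7.12 CPM in F2 METH and 274 ± 19.6 CPM in F2 saline libraries. The F1 log2 fold changes were -0.08 for Matn4, -0.15 for Tmem100 and 0.16 for Ptprz1.

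Of 20 other genes of newly formed oligodendrocytes, 14 were higher and 6 lower in F1 METH mice, with a median of 0.08. Itpr2, an inositol trisphosphate receptor gene, averaged 31.0 ± 7.95 CPM in F1 METH and 24.0 ± 1.72 CPM in F1 saline libraries, and Kif19a, a kinesin gene, 9.15 ± 0.480 CPM in F1 METH and 7.51 ± 0.403 CPM in F1 saline libraries. In F2, 4 were higher and 16 lower, with a median of -0.14 and none at an unadjusted p under 0.05. Itpr2 then averaged 32.0 ± 3.55 CPM in F2 METH and 31.9 ± 3.63 CPM in F2 saline libraries, so its F1 difference was not seen in F2. Kif19a had a log2 fold change of -0.18 (SE 0.14) in F2, opposite to its direction in F1.

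Of 21 genes of the signals that precursors receive or transduce, 13 were higher and 8 lower in F1 METH mice (median 0.05), and 12 were higher and 9 lower in F2 (median 0.02). Igf1, a growth factor gene, averaged 1.70 ± 0.557 CPM in F1 METH and 2.66 ± 0.700 CPM in F1 saline libraries, and 2.06 ± 0.513 CPM in F2 METH and 2.93 ± 0.554 CPM in F2 saline libraries. Its log2 fold changes were -0.64 (SE 0.30) and -0.51 (SE 0.23), neither of them called. Cxcl12, a chemokine gene, averaged 75.0 ± 6.64 CPM in F1 METH and 60.9 ± 8.16 CPM in F1 saline libraries. The log2 fold change of Cxcl12 was 0.30 (SE 0.11) in F1 and -0.02 (SE 0.11) in F2. Id4, an inhibitor of basic helix-loop-helix factors, averaged 201 ± 9.29 CPM in F2 METH and 171 ± 14.2 CPM in F2 saline libraries. The log2 fold change of Id4 was 0.20 (SE 0.22) in F1 and 0.23 (SE 0.07) in F2.

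**Figure D5:**
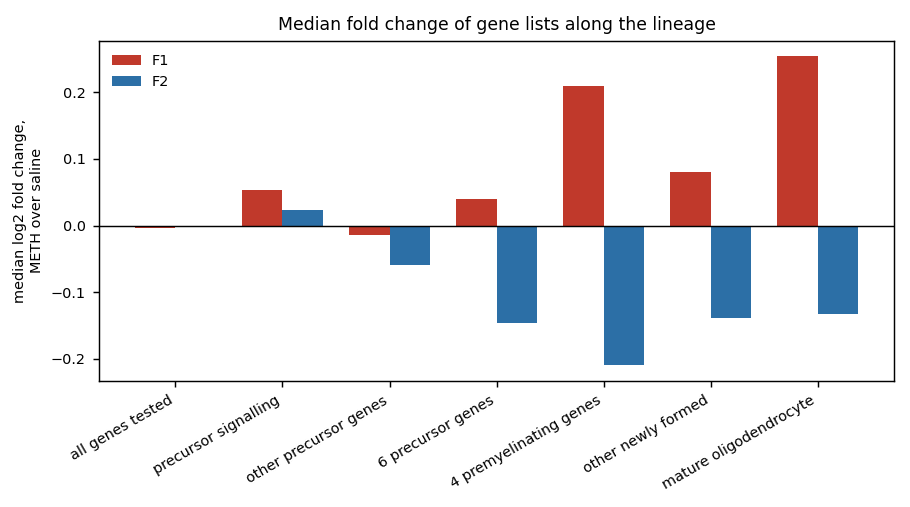
Median log2 fold change (METH over saline lineage) in F1 (red) and F2 (blue) of all genes tested and of 6 gene lists along the lineage. The mature markers stand at 0.25 in F1 and -0.13 in F2, the 4 premyelinating genes (Bcas1 included) at 0.21 and -0.21, and all genes tested at about 0. Bcas1 was chosen for its F1 values, which raises the F1 bar of the 4 premyelinating genes.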

How the data were processed

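Total RNA of whole striatum from 15 male ICR mice was sequenced, and the authors deposited 1 gene table per generation with a read count, an FPKM and a TPM for each library. How the deposited counts, FPKM and TPM values were made from the reads is not given in the sources used here. Submitters' processing notes list HISAT2 2.1.0 and StringTie 2.1.3b, with build mm10, beside Trimmomatic and bcl2fastq 2.20.0. Their order, their settings and any use of strand in counting are also not given there. Per the labels, replicates are separate animals. Of 21 pairs of libraries within a group, 0 agreed within sampling noise.

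Here the deposited counts were tested with edgeR 4.0.16 in R 4.3.3 (filterByExpr with a minimum count of 10, TMM scaling, quasi-likelihood F test, Benjamini-Hochberg over all genes tested, threshold 0.05), with 1 fit per generation and 1 of all 15 libraries for the difference. CPM values were computed from the counts with TMM scaling. Deposited TPM values were used for levels between genes, and the deposited FPKM values were not used. Correlations used log2 CPM with a prior count of 2. DESeq2 1.42.0, limma 3.58.1 (voom on counts, and a trend fit on log2(TPM + 1)), other filters, covariates and left-out libraries were alternatives. The edgeR steps were run on counts drawn with known changes and the same spread for every gene, as a check of sign and size. That check does not show how many changes in these data could go uncalled. Replicate numbers did not pair the libraries.

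The 10 genes and the gene lists were chosen with earlier results of these data known. The text names the 10 genes in every comparison, from 4 further lists genes among the 4 with the smallest unadjusted p in each generation, and the 5 genes most like Bcas1, leaving out predicted genes, with single marker genes such as Slc17a7 and Mbp. Some genes of these lists are not reported here. Positions and promoter windows are RefSeq's, GRCm38.p6. Figures were drawn with matplotlib 3.10.9.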

Additional observations from a re-analysis of the deposited data

Results flagged for a closer look

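Among 30 groups of 4 libraries, 3 held a library far from the other 3 by Dixon's ratio, where chance gives about 1 in 20. Pdgfra was at 50.3 CPM in F1 saline replicate 4, below the other F1 saline libraries (61.6 to 63.7 CPM). Cspg4 was at 28.2 CPM in F1 saline replicate 3, above the others (25.03 to 25.5 CPM). Olig1 was at 99.99 CPM in F1 saline replicate 1, below the others (116 to 119 CPM).

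The METH effect on Bcas1 in F2 minus that in F1 was -0.68 on the log2 scale. Every F1 METH library lay above the F1 saline mean and every F2 METH library below the F2 saline mean. This difference was not tested, because Bcas1 was chosen on its F1 values.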

How the results depend on the processing

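Calls among the 10 genes were 0 in F1, F2 and the difference under every other filter, scaling, covariate, tool and left-out library run, with the exception of DESeq2, which called 1 in F1 (Bcas1, chosen on that contrast). Leaving out 1 library at a time, the median log2 fold change of the 10 genes ran from -0.04 to 0.11 in F1 and from -0.24 to -0.05 in F2. The replicate block, whose numbers did not pair the libraries (same-number correlations from -0.062 to 0.40, with 3 of 14 libraries closest to their own number), gave medians of 0.04 in F1 and -0.17 in F2 and 0 calls. Some fold changes turned sign, and the cause was not tested. In F1, Pdgfra was -0.017 on log2(TPM + 1), -0.018 on log2(TPM + 0.1) and -0.037 with the replicate block. Olig1 in F1 was -0.023 on both TPM scales, -0.070 without libraries with Slc17a7 above 100 CPM and -0.17 with the mature marker mean as a covariate. With that covariate, F1 values were -0.0074 for Enpp6, which was 0.30 without it, and -0.091 for Olig2. The F2 value of Enpp6 was 0.0030. Differences between generations were 0.029 for Cspg4, 0.060 for Olig1 and 0.066 for Olig2. Without the covariate, those of Cspg4, Olig1 and Olig2 were -0.098, -0.24 and -0.25. The difference of Bcas1 kept its sign, at -0.44 with the covariate and -0.68 without it. The Cspg4 difference was 0.00072 on log2(TPM + 0.1) and 0.029 without the Slc17a7-high libraries. Leaving out 1 library, ranges that crossed 0 in F1 were -0.022 to 0.24 for Gpr17, -0.11 to 0.018 for Neu4, -0.074 to 0.10 for Pdgfra, -0.046 to 0.21 for Cspg4, -0.029 to 0.14 for Olig1 and -0.063 to 0.19 for Olig2. In F2 they were -0.21 to 0.023 for Enpp6, -0.035 to 0.13 for Cspg4 and -0.30 to 0.019 for Olig2, and for the difference -0.17 to 0.068 for Cspg4, -0.0074 to 0.15 for Tnr and -0.12 to 0.16 for C1ql1. Gpr17 in F2 stayed lower throughout, from -0.39 to -0.23 when 1 library was left out and at -0.45 without the Slc17a7-high libraries, with an adjusted p of at least 0.328 in edgeR's quasi-likelihood test. Depth limits C1ql1 most, with as few as 181 reads in a library.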
